A study of Rattus norvegicus with 8 samples.

Results

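The genes described here handle lipid and were read in rat medial collateral ligament, the band along the inner side of the knee: Lpl, Apoe and Cd36 in uptake, Fasn, Scd and Scd2 in synthesis, and Lipe in release. They were chosen by name, as every probe set of the array whose only gene symbol was 1 of these 7. Of 4737 genes on the array these 7 had 19 of the 8799 probe sets: 3 for Lpl, 2 for Apoe, 2 for Cd36, 2 for Scd, 6 for Scd2, 2 for Fasn and 2 for Lipe. A probe set is a group of short oligonucleotides read together, and its value is a signal intensity. Some probe sets of the array carry more than 1 gene symbol. The study used 8 arrays, 2 in each of 4 groups, and all ligaments were taken at 3 weeks. Loaded controls bore weight and had sham surgery, and loaded healing rats bore weight after their ligaments had been disrupted on both sides. Unloaded healing rats had the same disruption and were suspended by the tail from 24 h after it, so that the hind legs carried no weight. Unloaded controls were suspended by the tail but had no sham surgery, so sham surgery and unloading cannot be told apart between the control groups. Healing against control thus set disruption against no surgery in unloaded rats and against sham surgery in loaded rats. For a change of the healing difference between loaded and unloaded rats, unloading and sham surgery cannot be told apart either. The strain, sex and age of the rats were not given in the sources used here. Nothing states that a group's 2 arrays are different rats, so each error and p-value reflects array-to-array spread, which may be technical.

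Lipoprotein lipase, encoded by Lpl, frees fatty acids from circulating triglyceride-rich particles, and CD36 is a membrane receptor that takes up fatty acids and oxidised lipoproteins. Apolipoprotein E is the lipid carrier that hands lipoprotein particles to their receptors, and macrophages secrete it as they export cholesterol. Fatty acid synthase builds palmitate, the stearoyl-CoA desaturases Scd and Scd2 turn saturated into monounsaturated fatty acids, and hormone-sensitive lipase, encoded by Lipe, releases stored lipid in adipocytes. Macrophages that clear debris from injured tissue express several of these genes, as do fat cells, which surround the knee ligaments.

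Promoter letters are shown for Apoe, the brightest of the 19 probe sets' genes, for Scd2, 1 probe set of which had the pattern over the arrays most like that of Apoe, and for Scd, the close relative of Scd2. RefSeq windows of rat build GRCr8 were found for 4 of the 7 genes. Each sequence is the 250 bases before an annotated transcript start, 5′ to 3′ on the gene's strand, with matches to CCAAT and GGGCGG, on both strands, and to TATAA in capitals. The Apoe window is chr1:88484700-88484949 on the minus strand and belongs to the middle of 3 annotated starts. Scd2 is chr1:253118127-253118376 on the plus strand and Scd is chr1:253231732-253231981 on the minus strand.
Apoe: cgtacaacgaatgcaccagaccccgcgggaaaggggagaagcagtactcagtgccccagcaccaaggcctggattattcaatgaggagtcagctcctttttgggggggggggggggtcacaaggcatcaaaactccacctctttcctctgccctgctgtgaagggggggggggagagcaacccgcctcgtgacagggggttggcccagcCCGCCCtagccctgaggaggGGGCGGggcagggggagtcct
Scd2: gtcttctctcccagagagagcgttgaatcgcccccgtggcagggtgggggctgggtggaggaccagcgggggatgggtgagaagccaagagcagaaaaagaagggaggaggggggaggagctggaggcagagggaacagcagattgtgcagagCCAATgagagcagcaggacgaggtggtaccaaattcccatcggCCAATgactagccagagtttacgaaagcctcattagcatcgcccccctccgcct
Scd: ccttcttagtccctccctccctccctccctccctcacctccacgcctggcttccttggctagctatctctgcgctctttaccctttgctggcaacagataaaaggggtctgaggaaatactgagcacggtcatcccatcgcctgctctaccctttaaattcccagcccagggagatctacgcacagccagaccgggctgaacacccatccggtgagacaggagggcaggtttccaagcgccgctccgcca
The printed Apoe window held 2 GC boxes (GGGCGG or its complement, CCGCCC) and the Scd2 window held 2 CCAAT boxes. Of the Apoe windows not printed, 1 overlaps the printed one and held the same 2 GC boxes, 1 CCAAT box and 1 TATAA. The remaining Apoe window held 0 matches. The Scd window held 0 matches to any of the 3 motifs. Of all 33469 windows of that length in the table, 34.0% held CCAAT or ATTGG, 30.5% a GC box and 24.0% TATAA or TTATA. A match says only that these letters are present.

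Differences are given in log2 units, where 1 unit is a doubling, after an offset of 45.8 had been added to every signal. The offset shrinks the differences of dim probe sets. Of the 19 probe sets, 13 were bright enough to be tested: all of Lpl, Apoe, Fasn and Lipe, 1 of 2 for Scd, 3 of 6 for Scd2 and 0 of 2 for Cd36. They were tested with limma among 5244 probe sets, and a call is an adjusted p under 0.05.

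Both arrays of unloaded controls differed from the other 6. Their 99th percentiles of signal were 5494 and 5584, against 9218 to 11289 elsewhere. Their median signals were instead the highest, 313.6 and 315.9 against 238.7 to 286.2 elsewhere. The summed signal of 10 ligament fibroblast markers was 4282 and 4959 on them, against 92098 to 113430 in loaded controls, 107461 to 126441 in loaded healing and 54198 to 70476 in unloaded healing. Over all tested probe sets the median difference was 0.23 between unloaded and loaded controls and -0.23 between healing and control in unloaded rats. Every comparison with the unloaded controls rests on these differing arrays, and the part this played in the results was not tested. In bulk tissue, fewer cells of a type and less RNA per cell cannot be told apart.

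Lpl signal was highest in loaded healing ligaments on all 3 of its probe sets, and Apoe signal was highest there on its bright probe set. The bright Lpl probe set, L03294_g_at, read 972.8 and 1861.5 in loaded controls, 5235.8 and 5421.7 in loaded healing, 1174.2 and 937.4 in unloaded controls, and 1108.7 and 1409.3 in unloaded healing. Both loaded healing arrays lay far above the other 6, and the other 3 groups overlapped one another. It rose 3.86-fold from loaded control to loaded healing (log2 1.95 ± 0.31 SE, limma adjusted p = 0.0123, n = 2 in every group of every comparison). From loaded to unloaded healing it fell 4.15-fold (-2.05 ± 0.31, limma adjusted p = 0.0111).

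The second Lpl probe set, L03294_at, read 513.6 and 574.5 in loaded controls, 1519.1 and 1212.1 in loaded healing, 691.4 and 294.1 in unloaded controls, and 913.2 and 770.5 in unloaded healing. The third, rc_AI237731_s_at, read 298.2 and 367.4, 662.4 and 598.7, 323.9 and 283.5, and 491 and 371.3 in the same order of groups. On both, the loaded healing arrays were again the highest 2 of the 8, but neither difference was called. L03294_at differed by 1.25 (95% interval 0.34 to 2.16, limma adjusted p = 0.206) and rc_AI237731_s_at by 0.84 (-0.10 to 1.78, adjusted p = 0.512) between loaded healing and control. Under unloading in healing they differed by -0.67 (-1.58 to 0.24) and -0.51 (-1.46 to 0.43). The 3 probe sets thus shared the direction in both comparisons and differed in size.

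**Figure D1:**
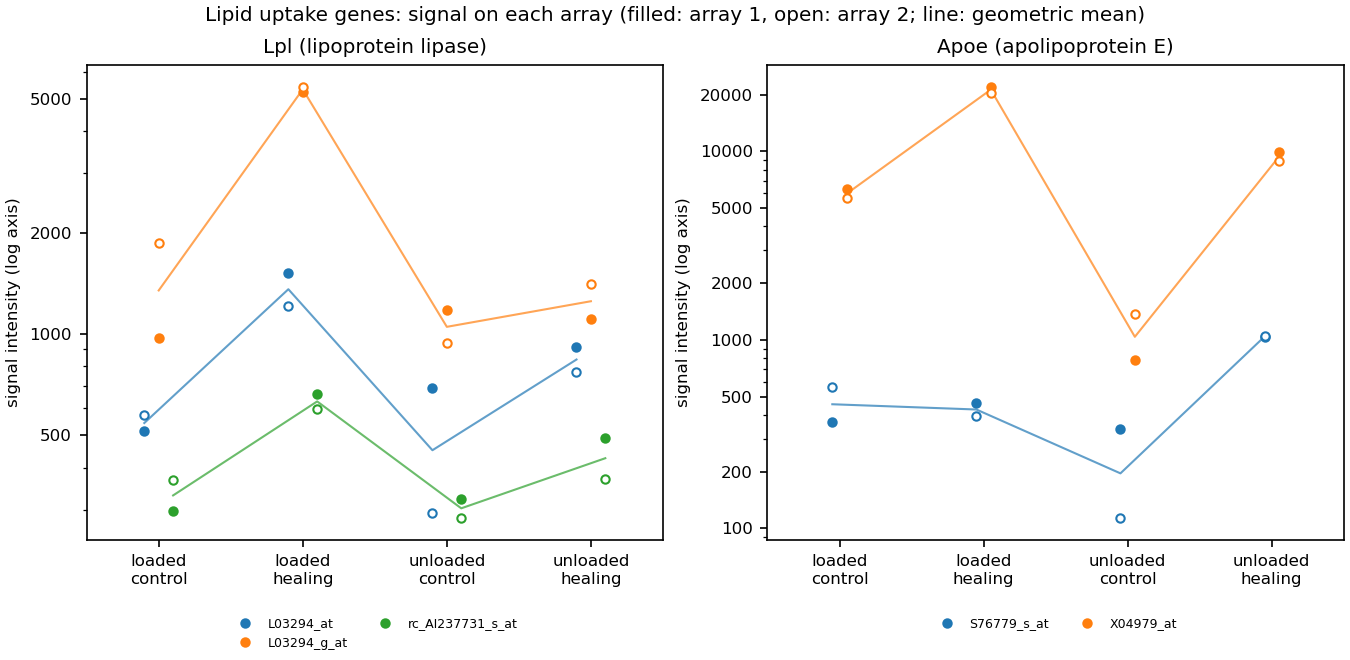
Signal intensity (log axis) of each Lpl and Apoe probe set in the 4 groups; filled points are array 1, open points array 2, and lines join geometric means. All 3 Lpl probe sets peak in loaded healing, where L03294_g_at reads 5235.8 and 5421.7, while the dim Apoe probe set S76779_s_at peaks in unloaded healing at 1039.9 and 1043.6.

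The 2 Apoe probe sets disagreed. X04979_at read 6286.9 and 5666.7 in loaded controls, 22010 and 20531.1 in loaded healing, 782.8 and 1379.8 in unloaded controls, and 9925.6 and 8843.1 in unloaded healing. No 2 groups overlapped, with loaded healing highest and unloaded controls lowest. It rose 3.54-fold in loaded healing (log2 1.82 ± 0.24, limma adjusted p = 0.00393) and fell 2.26-fold in unloaded against loaded healing (-1.18 ± 0.24, limma adjusted p = 0.0433).

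S76779_s_at, the dimmer Apoe probe set, read 369 and 563.5 in loaded controls, 462.7 and 395.2 in loaded healing, 338.4 and 113.6 in unloaded controls, and 1039.9 and 1043.6 in unloaded healing. Here unloaded healing was the highest group, and loaded healing overlapped loaded control. The difference was -0.09 (95% interval -1.20 to 1.03) in loaded healing and 1.20 (0.09 to 2.31, limma adjusted p = 0.409) in unloaded against loaded healing. The last interval does not overlap that of X04979_at for the same comparison, -1.71 to -0.64. The probe sets did share a direction against the unloaded controls: from unloaded control to unloaded healing X04979_at rose by 3.12 ± 0.24 (limma adjusted p = 7.48e-06) and S76779_s_at by 2.14 ± 0.50 (limma adjusted p = 0.0266). X04979_at was also lower in unloaded than in loaded controls (-2.47 ± 0.24, limma adjusted p = 5.08e-05), and S76779_s_at differed there by -1.02 (-2.14 to 0.09).

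Cd36 signal was low. AB005743_at ran from 47 to 331.4 and AB005743_g_at from 18.7 to 68.6 over the 8 arrays, and both fell below the filter on dim probe sets. AB005743_at gave 221.2 and 331.4 in loaded healing, 47 and 277.1 in unloaded healing and 64.5 and 227.2 in loaded control, so all 3 groups overlapped. Without the filter limma gave it adjusted p = 0.811 in loaded healing and 0.788 for unloading in healing. Another 5 probe sets carry Cd36 together with the related symbol Cd36l1 and lie outside the rule. The brightest of their values was 824.8, on rc_AA946368_at in loaded healing.

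Fasn was not called on either of its 2 probe sets. M76767_s_at read 1323.4 and 1145.8 in loaded controls, 1087.9 and 944 in loaded healing, 1587.4 and 1435.3 in unloaded controls, and 1495.5 and 1505.1 in unloaded healing. X13527cds_s_at read 1270.4 and 1129.3, 776.8 and 581.2, 1824.3 and 868.1, and 901.7 and 1108.5 in that order. Loaded healing held the lowest 2 arrays on both probe sets, the reverse of Lpl, but neither difference was called. In loaded healing they differed by -0.27 (95% interval -0.82 to 0.28) and -0.79 (-1.62 to 0.04) from control, and scaling to the spike-in controls moved these to 0.12 and -0.41. From loaded to unloaded healing they differed by 0.55 (-0.01 to 1.10) and 0.54 (-0.29 to 1.37), and spike-in scaling left 0.07 of each.

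Scd was measured by 1 probe set of usable brightness, and its replicates did not match. J02585_at read 415.2 and 659.5 in loaded controls, 47.5 and 516.3 in loaded healing, 805.5 and 838.9 in unloaded controls, and 74.8 and 471.6 in unloaded healing. In both healing groups the first array was low and the second lay near the loaded controls, so the interval of the loaded healing difference ran from -3.27 to 0.64 (log2 -1.32, limma adjusted p = 0.663). Its other probe set, rc_AI175764_s_at, stayed between 1 and 86.8 and was not tested.

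The 6 Scd2 probe sets followed at least 2 different orders. On rc_AA875269_at the loaded healing arrays were highest (709.8 and 617.7), unloaded healing read 366.1 and 372.6, loaded control 410.7 and 109.8, and unloaded control only 46.8 and 46.5. AF036761_at was instead highest in unloaded controls, with 808 and 881 in unloaded controls, 312.2 and 661.3 in unloaded healing, 175.3 and 303.8 in loaded healing, and 190.5 and 160.1 in loaded controls. S75730_at, the brightest, stayed between 544.1 and 1306.9 with overlapping healing groups. AF036761_g_at, named for the same source sequence as AF036761_at, carries Scd2 together with Scd, Scd3 and Scd4 and lies outside the rule. It was too dim to test, and its control groups overlapped, at 66.3 and 115.3 loaded and 155.6 and 95.8 unloaded.

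AF036761_at was 4.03-fold higher in unloaded than in loaded controls (log2 2.01 ± 0.51, limma adjusted p = 0.0417). Between these groups rc_AA875269_at differed by -1.53 (95% interval -2.86 to -0.19, limma adjusted p = 0.209) and S75730_at by 0.24 (-0.66 to 1.14). These intervals of AF036761_at (0.88 to 3.14) and rc_AA875269_at do not overlap. In loaded healing the 3 probe sets differed from control by 0.33, 1.41 and -0.38 for AF036761_at, rc_AA875269_at and S75730_at, and in unloaded against loaded healing by 0.86, -0.77 and -0.13, none of them called by limma. In unloaded rats, healing against control gave -0.82 ± 0.51 for AF036761_at and 2.17 ± 0.60 (limma adjusted p = 0.0595) for rc_AA875269_at. The 95% interval of the first ended at 0.31 and that of the second began at 0.83. The second of these was called in 4 of 10 other settings and without either loaded control (limma adjusted p 0.0294 to 0.219 with single arrays left out).

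The split was present even between probe sets named for 1 source sequence. M15114_g_at read 544.4 and 490.2 in loaded healing and at most 267.3 elsewhere, whereas M15114_at read 381.6 and 574.9 in unloaded controls and at most 164.5 elsewhere. Both lay below the filter, as did U67995_s_at (16.3 to 95.3). Tested without the filter, M15114_at was lower in unloaded healing than in unloaded control (-2.43, limma adjusted p = 0.0439), and M15114_g_at gave limma adjusted p = 0.366 for its 1.78 in loaded healing.

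Lipe showed no called difference in any comparison with limma. U40001_at stayed between 1094.8 and 1833.5 on all arrays, and its loaded healing difference was -0.04 (95% interval -0.64 to 0.56). X51415cds_s_at read 560.5 and 390.2 in loaded controls, 97.6 and 358.8 in loaded healing, 886.4 and 427.4 in unloaded controls, and 331.6 and 631.7 in unloaded healing. Both loaded healing arrays lay below both loaded controls, at -1.09 (-2.46 to 0.28).

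**Figure D2:**
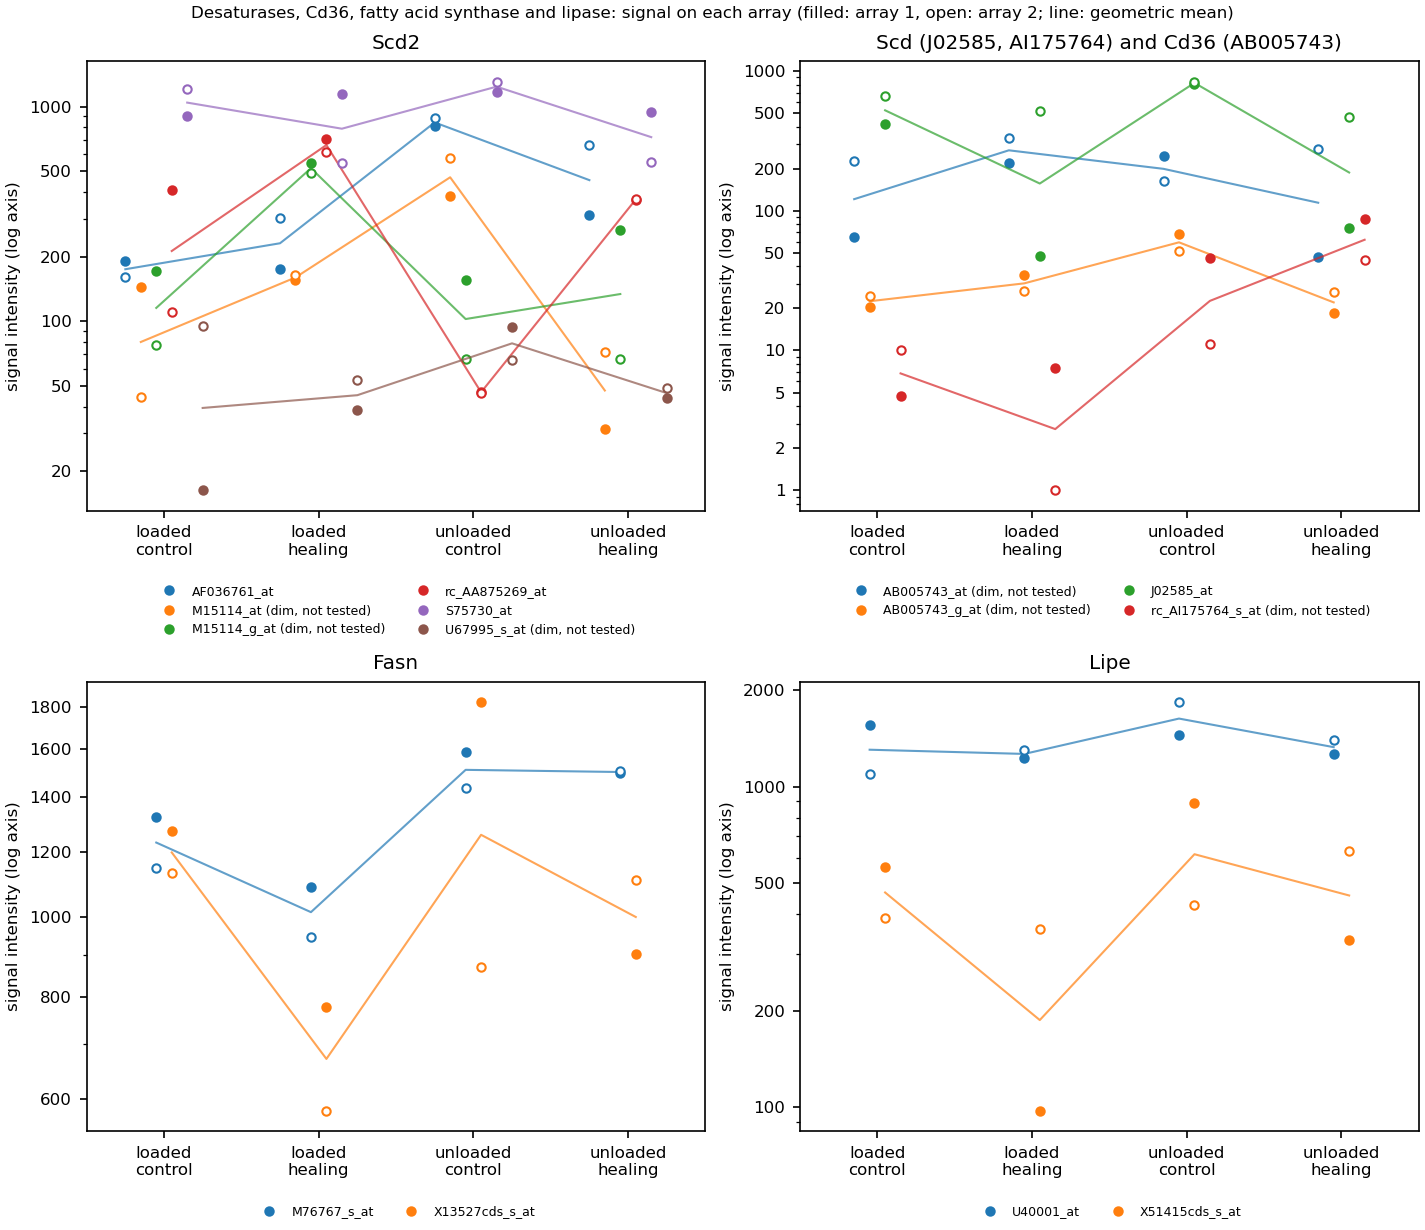
Signal intensity (log axis) of the Scd2, Scd, Cd36, Fasn and Lipe probe sets in the 4 groups; filled points are array 1, open points array 2, lines join geometric means, and probe sets below the filter are marked as dim. In the Scd2 panel rc_AA875269_at drops to 46.8 and 46.5 in unloaded controls, where AF036761_at reads 808 and 881.

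Counted over the tested probe sets, 2 of 13 (15.4%) were called in loaded healing, both higher, against 2.02% of all probe sets. In unloaded against loaded healing 2 of 13 were called, both lower and the same 2 as before, L03294_g_at and X04979_at, against 1.62% of all. These comparisons share the loaded healing arrays. The 13 also had both directions beside the calls, with a median of -0.04 in the first comparison and 0.07 in the second, against -0.03 and 0.06 over all probe sets. With single arrays left out, the loaded healing difference ran from 1.494 to 2.399 for L03294_g_at and from 1.75 to 1.899 for X04979_at. In unloaded against loaded healing these ran from -2.219 to -1.885 and from -1.261 to -1.095. Leaving out an array of a compared group leaves 1 array there, so a lost call does not by itself show a smaller difference. The calls in loaded healing depended on single arrays. L03294_g_at was not called without loaded control 1 (limma adjusted p = 0.0808), loaded healing 1 (0.112) or loaded healing 2 (0.110). X04979_at was not called without loaded control 2 (0.0515) or loaded healing 1 (0.0611). In unloaded against loaded healing, L03294_g_at lost its call without any 1 of the 4 arrays compared (limma adjusted p 0.0532 to 0.124), and X04979_at also without either loaded control (0.0778 to 0.266 over those 6).

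In unloaded rats 2 of 13 were called between healing and control, both of them Apoe probe sets and both higher, against 7.46% of all probe sets. The call of S76779_s_at ended without unloaded control 2 (log2 1.50, limma adjusted p = 0.170), unloaded healing 1 (0.106) or unloaded healing 2 (0.107). Between the control groups 2 of 13 were called, X04979_at lower and AF036761_at higher, against 6.81% of all. AF036761_at lost its call without any 1 of the loaded arrays or the unloaded controls (limma adjusted p 0.0502 to 0.244).

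The test of whether the healing difference itself differed between unloaded and loaded rats called 0 of 13 with limma, against 4.84% of all probe sets. Of all 5244 probe sets 678 had an unadjusted p under 0.05, and of the 13, 3 did. They were L03294_g_at (-1.70 ± 0.44, limma adjusted p = 0.0640), X04979_at (1.29 ± 0.34, 0.0693) and S76779_s_at (2.22 ± 0.71, 0.157). The positive sign of X04979_at stands beside its low unloaded controls, and without unloaded control 2 it was called, at 1.68 (limma adjusted p = 0.00381). L03294_g_at was called without loaded control 2, at -2.16 (limma adjusted p = 0.0116). Between unloaded healing and loaded control 0 of 13 were called with limma, against 0.0763% of all. An unadjusted p under 0.05 was found for 291 of all 5244 and for 2 of the 13, X04979_at at 0.65 and AF036761_at at 1.19. L03294_g_at differed by -0.11 there (95% interval -0.80 to 0.59).

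**Figure D3:**
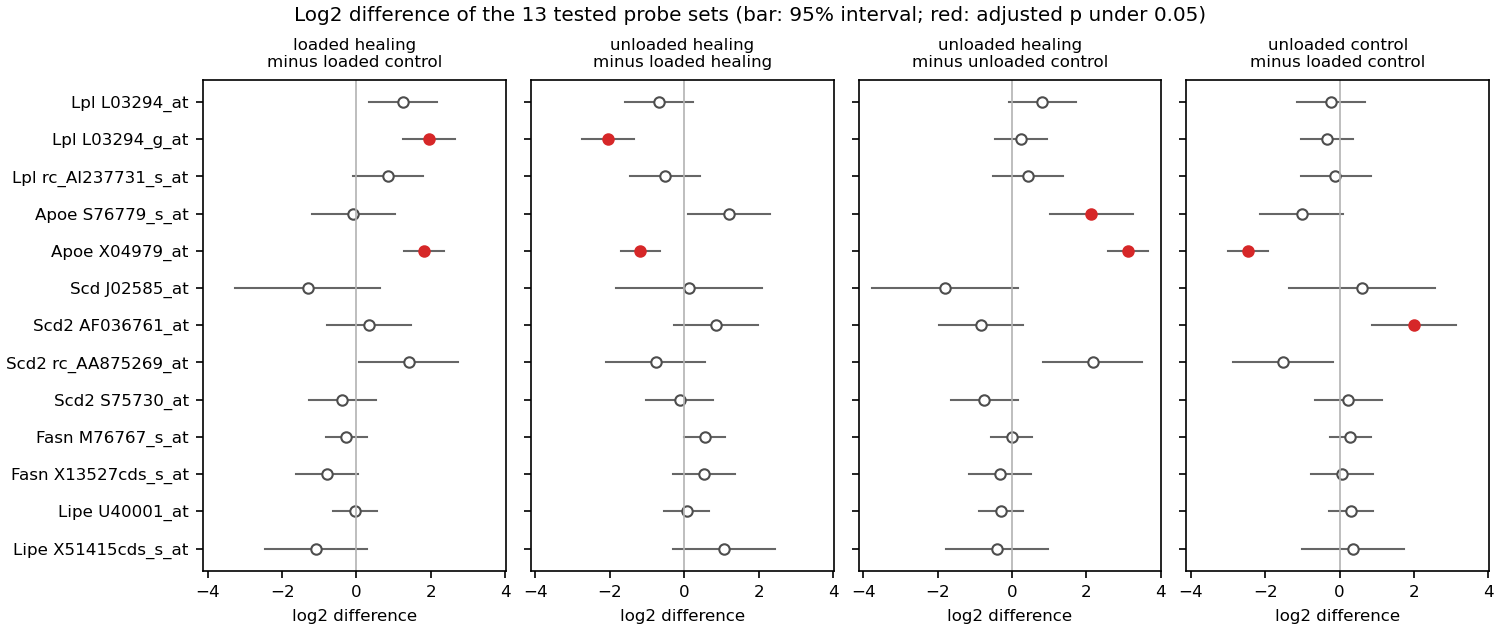
Log2 difference of each tested probe set in 4 comparisons, with its 95% interval, one row per probe set; filled red points are called by limma at an adjusted p under 0.05 and open points are not. L03294_g_at and X04979_at are red on the right in loaded healing (1.95 and 1.82) and on the left under unloading in healing (-2.05 and -1.18), while the Apoe probe sets lie on opposite sides of 0 in the second panel.

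The other genes of lipid handling were each read on their brightest probe set, with the 7 genes above left out. Of 17 tested genes of lipoprotein and fatty acid uptake 0 were called in loaded healing with limma (3 at an unadjusted p under 0.05, median -0.15) and 0 in unloaded against loaded healing (4, median 0.10). Of 12 genes of fatty acid and triglyceride synthesis 0 were called in either (3 and 1 unadjusted). Of 15 of cholesterol synthesis and efflux 0 were called (0 and 0 unadjusted), and of 15 of lipolysis and fatty acid oxidation 0 (2 and 1 unadjusted). Over all 5244 tested probe sets 2.02% and 1.62% were called in these 2 comparisons, and 614 and 574 had an unadjusted p under 0.05. Beside those shares, 0 calls in lists of this size do not set the lists apart. The brightest pair of each list is given next. Fabp6, the bile acid-binding protein, ran from 22744.7 to 39856.1 over all arrays. Apob, the apolipoprotein of the particles that Lpl acts on, read 241.2, 327.4 and 354.8 on the first array of loaded control, loaded healing and unloaded healing, and 3955.6, 3571.9 and 3187.7 on the second. Unloaded controls read 2247.7 and 3198.3 for Apob. Its first array was thus the lower of the 2 in all 4 groups, as was that of the Scd probe set J02585_at. Acly, which makes the acetyl-CoA for fatty acid synthesis, read 1238.2 and 1527.1 in loaded controls, 2229.6 and 2315.7 in loaded healing, 1326.5 and 1376 in unloaded controls and 1168.1 and 949.7 in unloaded healing (0.71 and -1.08 for the 2 comparisons, limma adjusted p = 0.245 and 0.0744). Acsl1, which activates fatty acids, ran from 508 to 917.5 outside the unloaded controls and read 2102.1 and 1476.2 in them. Stard3, a cholesterol transporter of endosomes, ran from 1490.4 to 2015.5 over all arrays, and Lss, of cholesterol synthesis, from 251.8 to 1595.8. The uncoupling protein gene Ucp2 ran from 2446.6 to 3570.1, and Ppard, a fatty acid-sensing nuclear receptor, from 1161.1 to 2390.5.

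The other called lipid gene of these lists was Idh1, a cytosolic source of NADPH, and only against the unloaded controls. It read 72.1 and 38.5 there and 385.9 to 704 on the other 6 arrays (limma adjusted p = 0.00532 for healing in unloaded rats and 0.0121 between controls).

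Fabp4, the fatty acid-binding protein of adipocytes and of macrophages, was highest in loaded healing, as L03294_g_at was. It was singled out after its values were seen. Its probe set read 735.5 and 592.7 in loaded healing, 45.6 and 20.1 in loaded controls, 75.2 and 54.8 in unloaded controls, and 40.4 and 58.7 in unloaded healing. Only the loaded healing arrays were above 80, so its mean fell below the filter and it was not part of the main test. Without the filter it was higher in loaded healing (log2 3.19 ± 0.44, limma adjusted p = 0.0137) and lower in unloaded than loaded healing (-2.90 ± 0.44, limma adjusted p = 0.0275). Its healing difference was lower in unloaded than in loaded rats (-3.40 ± 0.62, limma adjusted p = 0.0175), whose controls also differed in sham surgery. Leaving out single arrays kept 4 of 8, 0 of 8 and 3 of 8 of these calls (limma adjusted p up to 0.163, 0.153 and 0.101). Among the listed genes below the filter Etfa, an electron carrier of fatty acid oxidation, was also called without it. That call was for the change of the healing difference (-3.68 ± 0.74, limma adjusted p = 0.0312). Etfa read 396 and 246.5 in unloaded controls, and loaded healing overlapped these at 96.7 and 275.6. The Fabp4 relative Fabp5, also chosen after its values were seen, read 1993.4 and 1584.4 in loaded healing and 86.5 to 579.2 on the other 6 arrays (2.06 ± 0.48, limma adjusted p = 0.0700 in loaded healing).

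**Figure D4:**
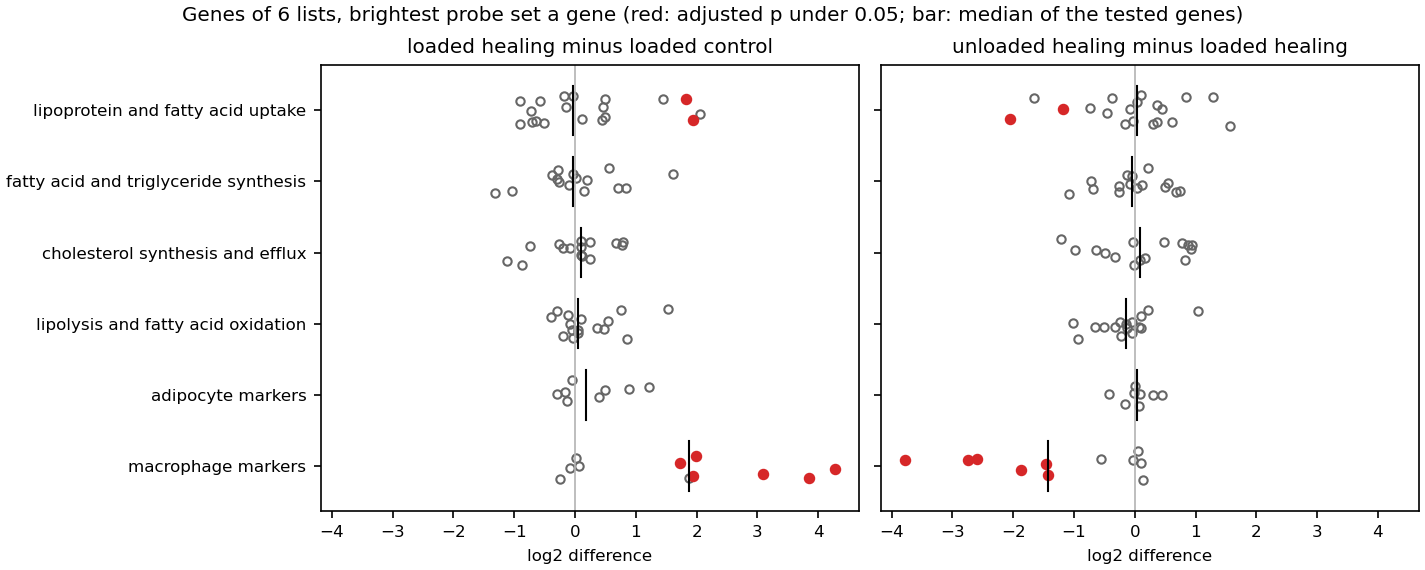
Log2 difference of each tested gene of 6 lists (brightest probe set; Lpl, Apoe, Fasn, Scd, Scd2 and Lipe included where listed) in 2 comparisons; red points are called by limma and black bars are medians. The 2 red points of the uptake list are Lpl and Apoe, and 6 of the 11 macrophage markers are red, on the right in loaded healing and on the left under unloading.

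Markers of several cell types were called in the 2 comparisons in which L03294_g_at and X04979_at were called. In these, loaded healing and unloaded against loaded healing, 2.02% and 1.62% of all probe sets were called. Of 11 tested macrophage markers 6 were higher in loaded healing and 0 lower with limma (median 1.88), and the same 6 were lower in unloaded than loaded healing (median -1.43): Spp1, Mmp12, Lyz2, Ctss, RT1-Da and Lgals3. The summed signal of 14 such markers was 9950 and 10846 in loaded controls, 42250 and 51999 in loaded healing, 7621 and 8031 in unloaded controls and 12088 and 12569 in unloaded healing. Within the loaded healing sum Lyz2 alone read 16260.4 and 13978 on arrays 1 and 2, and Spp1 11380.1 and 7321.8. Several other macrophage genes did not follow. In loaded healing Cd14 differed by -0.24, Aif1 by -0.08, C1qc by 0.02 and Cd74 by 0.07. Fcgr2b was higher there but not called (1.88, limma adjusted p = 0.315). The receptor gene Csf1r stayed between 56.2 and 99.8 and was too dim to test. The part of macrophages in the Lpl and Apoe values was not tested.

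Of 7 tested adipocyte markers 0 were called in loaded healing with limma (1 at an unadjusted p under 0.05) and 0 in unloaded against loaded healing (0 unadjusted). Their summed signal over 14 genes was 12159 to 16889 in loaded controls, 12966 to 14641 in loaded healing, 11674 to 16061 in unloaded healing and 18405 to 19646 in unloaded controls, most of it from the Lep probe set (6934.3 to 12512.4). Without Lep, the other 13 summed to 3206 to 5198, 5240 to 5641, 4731 to 4740 and 6200 to 7133 in that order. Of defining fat cell genes, the lipid droplet gene Plin1 read 54.8 and 123 in loaded controls and 57.8 and 304.8 after healing with load. The fat cell regulator Pparg read 70.5 and 159.3 before 87.1 and 113.6 in that order, and the secreted protease gene Cfd 87.8 and 128.1 before 89.1 and 226.9. All 3 lay below the filter, and Pparg was highest in unloaded controls (547.1 and 421). Of the 7 tested markers 4 were higher and 3 lower in loaded healing, called or not. The glucose transporter gene Slc2a4 read 184.6 and 213.1 in loaded controls and 524.1 and 525 in loaded healing (1.22, limma adjusted p = 0.204). Its difference was called between the control groups, where it was higher in unloaded controls (2.05 ± 0.40, limma adjusted p = 0.00865). Fabp4 is on this list too. Over all probe sets 2.02% were called in loaded healing and 1.62% in unloaded against loaded healing. The part of fat tissue in the Lpl, Apoe and Fabp4 values was not tested.

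**Figure D5:**
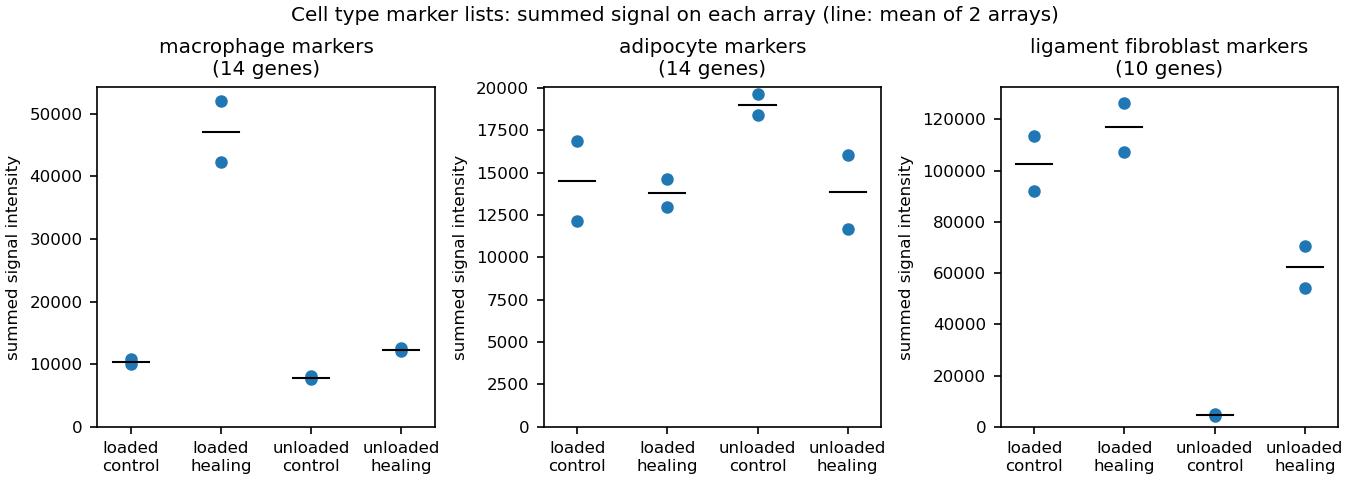
Summed signal of 3 lists of cell type markers on each array, with the mean of the 2 arrays of a group as a line. Macrophage markers are highest in loaded healing (42250 and 51999) and ligament fibroblast markers are lowest in unloaded controls (4282 and 4959). Adipocyte markers overlap between the loaded groups, with most of their signal from Lep. Without Lep, which is not drawn, they sum to 3206 to 5198 in loaded controls and 5240 to 5641 in loaded healing.

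Of 13 skeletal muscle markers 1, the actin gene Acta1, was higher in loaded healing with limma and 1, the myosin gene Myh4, was lower in unloaded than loaded healing. Their summed signal over 15 genes was 12775 and 13198 in loaded controls, 16674 and 22286 in loaded healing and 15091 and 17371 in unloaded healing. Of 10 ligament fibroblast markers 2 were lower in loaded healing with limma, the matrix genes Comp (-2.74, adjusted p = 0.0134) and Bgn (-1.38, 0.0232), and 2 others were lower in unloaded than loaded healing, the collagen genes Col1a2 (-1.99, 0.000888) and Col3a1 (-1.20, 0.0344). Of 5 endothelial markers 0 were called in loaded healing with limma (0 at an unadjusted p under 0.05) and 1, the nitric oxide synthase gene Nos3, was lower in unloaded than loaded healing (-1.49, adjusted p = 0.0439). The brightest endothelial probe set, of the VEGF receptor gene Kdr, split by array as Apob did, at 130.9, 256.9 and 244.7 against 3104.5, 3450.2 and 3545.9. Of 3 erythroid genes 0 were called in either comparison with limma (1 and 1 unadjusted). The shares called over all probe sets were 2.02% in loaded healing and 1.62% in unloaded against loaded healing. The part of these cell types in the Lpl and Apoe values was not tested.

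Over the 8 arrays, the genes whose log2 signal ran most like L03294_g_at were Slc25a17 (Pearson r = 0.964), Mfsd12 (0.964) and the glycolytic enzyme gene Pgam1 (0.962). For X04979_at they were the proteasome subunit gene Psmb4 (0.990), the selenium carrier gene Selenop (0.987) and Cd63 (0.984), and for the Scd2 probe set rc_AA875269_at Hspe1 (0.985), Sod1 (0.973) and Atp5pf (0.965). Among the lipid probe sets the closest pair was X04979_at with rc_AA875269_at (0.938), ahead of L03294_at with rc_AI237731_s_at, both Lpl (0.925). These values were picked as the highest of 5244, over 8 arrays that include the differing unloaded controls, and are a description.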

How the data were processed

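RNA was read on 8 one-colour arrays, 2 for each of the 4 labelled groups. The deposited table gives each probe set's signal intensity on a linear scale, already scaled between arrays by the authors, since the 2% trimmed mean was 500.3 to 500.6 on every array. The software behind the probe set summary was not given in the sources used here.

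The fit used all 8 arrays. Gene symbols were taken from the platform's annotation, and the Entrez identifiers of all 19 probe sets were found in the RefSeq table. The 59 control probe sets were left out, 45.8 (the 10th percentile) was added before log2, and the dimmest 40% by mean were removed, leaving 5244. limma 3.58.1 in R 4.3.3 fitted 1 mean for each group (intensity-trended prior, 4 residual degrees of freedom), two-sided, with Benjamini-Hochberg adjustment over all 5244. It was tested on simulated data. The number of arrays limits the precision.

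Members, lists and alternatives were chosen with earlier results of these data known. Every member probe set was named. From each pathway list up to 4 called genes per comparison were to be named, or else the 2 brightest; called genes of the marker lists were added beyond this. Likeness gave the 3 highest correlations, shown for 3 probe sets. Fabp4, Fabp5, Etfa and single markers were added after their values were seen.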

Additional observations from a re-analysis of the deposited data

How the results depend on the processing

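Each difference called for a lipid probe set kept its sign under all alternatives run. Among the uncalled ones signs turned in 13 values under other settings and in 33 with single arrays left out. Calls depended on the settings. In loaded healing, 2 of the lipid probe sets were called, 0 when the variance prior ignored intensity, and 0 to 2 with single arrays left out. In unloaded against loaded healing, 2 were called, 1 with quantile normalization, with median centring, with a floor in place of the offset, without the filter and with a robust prior, 0 without the trend, and 0 to 2 with single arrays left out. X04979_at lost that call in each of the named settings (limma adjusted p 0.0535 to 0.284). Without the trend L03294_g_at lost its call too (limma adjusted p = 0.0981). In unloaded rats 2 were called, 1 when only the compared groups were fitted, 3 with quantile normalization, with median centring, with a floor, without the filter and without the trend, and 1 to 3 with single arrays left out. Between controls 2 were called, 1 with median centring, with spike-in scaling and without the filter, and 1 to 2 with single arrays left out. For the change of the healing difference with unloading 0 were called with limma (3 at an unadjusted p under 0.05), 1 with spike-in scaling, with an offset 4 times as large and with the replicate block, L03294_g_at each time, and 0 to 1 with single arrays left out. The unloaded healing against loaded control count was 0 throughout.

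Over all probe sets, the change of the healing difference had 221 to 330 calls in the other settings, against 254 in the main fit. In the other comparisons the calls ranged from 29 to 124 in loaded healing against 106, from 16 to 137 in unloaded against loaded healing against 85, from 309 to 621 in unloaded rats against 391, from 295 to 592 between controls against 357, and from 0 to 7 between unloaded healing and loaded control against 4. With single arrays left out they ranged from 27 to 94, 25 to 83, 318 to 368, 282 to 360 and 0 to 6. Spike-in scaling moved the median of all probe sets in loaded healing from -0.03 to 0.34 and in unloaded against loaded healing from 0.06 to -0.40. The labels do not say what the replicate numbers share. Deviations of same-numbered arrays correlated at 0.16 to 0.20 among loaded control, loaded healing and unloaded healing. Between each of these and unloaded control they correlated at 0.00 to 0.01. Median signals in the first-named groups also split by number, at 238.7, 245.2 and 250.8 on array 1 and 280.1, 282.3 and 286.2 on array 2. The main fit did not take the arrays as paired, and the source of this split was not tested. With the replicate block L03294_g_at reached limma adjusted p = 0.0445 for the change of the healing difference, and the lipid counts were 2, 2, 2, 2, 1 and 0. Where an array was left out, the lone array of its group was assumed to vary like the others. Fabp4 without the filter was called in 8 of 8 further settings, chosen after seeing the data, in each of its 3 comparisons.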
